A study of Mus musculus with 24 samples.

Results

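The subject is 1 interaction: the difference in expression between regulatory T cells (Treg) and conventional CD4 T cells (Tconv) in the liver, minus the same difference in the spleen. Genes entered when 3 or more of the 12 liver and spleen libraries reached a normalized read count of 10, which kept 17452 of the 35612 genes in the table, and 12 of the 24 libraries of the series. All cells came from male C57BL/6 mice of the Foxp3Thy1.1 strain, 5 months old and not described as treated, in which the surface protein Thy1.1 reports Foxp3. The 4 groups are liver Treg, liver Tconv, spleen Treg and spleen Tconv, each with 3 pools of cells from 3 mice. Per the labels, live CD45+ TCRβ+ CD4+ cells were sorted, with NK-1.1, CD8α and CD1d tetramer binding excluded, and split by Foxp3 into Treg and Tconv. Pools are the replicates (n = 3 in each group), and the spread that enters each p-value is that among pools, which may be partly technical.

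Treg are CD4 T cells that hold back immune responses, and the transcription factor Foxp3 sets and keeps their identity. They depend on interleukin-2 (IL-2), which is made mainly by activated Tconv and is bound with high affinity through the receptor chain CD25, the product of Il2ra. Signals from that receptor run through the transcription factor STAT5. The spleen is a lymphoid organ whose T cells are mostly recirculating, while the liver holds many activated and resident T cells and receives blood from the gut. The interaction asks whether the signed difference, Treg minus Tconv, here called the gap, is the same in both organs. On the log2(value + 1) scale, an interaction of 1 is a Treg-to-Tconv ratio 2 times as large in liver as in spleen, and an interaction below 0 is a smaller ratio in liver, also where Tconv are the higher cells and lie further above Treg there. It can arise from a change in Treg, in Tconv or in both, so the 4 group levels are given beside it.

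The libraries held 17523927 to 25398037 reads, and the T cell transcripts Cd3e, Cd4 and Trac were high in all of them. Cd3e lay between 20836 and 28322, Cd4 between 13359 and 27946 and Trac between 11325 and 21619, the last 2 highest in Spleen Tconv 1. Foxp3 gave normalized read counts in liver Tconv 305, 23.1 and 492, in liver Treg 1513, 1402 and 1805, in spleen Tconv 21.2, 13.6 and 593 and in spleen Treg 1698, 1919 and 1979.8. All 6 Treg libraries stood above all 6 Tconv libraries, but Liver Tconv 1, Liver Tconv 3 and Spleen Tconv 3 held Foxp3 reads well above the other 3 Tconv libraries. The interaction of Foxp3 was -1.66 ± 1.77 (SE; adjusted p = 0.772). It was -0.67 without those 3 libraries, where Liver Tconv 2 is the only liver Tconv pool. Thy1, the gene whose Thy1.1 form serves as the reporter, had an interaction of -0.15 ± 0.141 (SE; adjusted p = 0.733). Liver Tconv 2 also stood apart. Its summed level of marker genes of other cells was above both other liver Tconv libraries in 9 of 10 lists, and the highest of all 12 libraries in 7 of 10. Lyz2, a lysozyme gene of macrophages, was at 6767 in Liver Tconv 2 against 91.1 and 45.9 in the other 2. Clec4f, a lectin of Kupffer cells, was at 1098 against 0.8 and 4.00. Spleen Treg 1 had the highest sum of the B cell list, 142762, and held S100a8, a neutrophil gene, at 438 against 36.6 and 9.10 in the other spleen Treg pools. Of the 3 most abundant members of each list of other cells, 30 genes in all, none passed the test (lowest adjusted p = 0.108; 3 had an unadjusted p under 0.05, edgeR called 0, and DESeq2, which called 1.15% of all genes, called 3), and their interactions ran from −3.46 to 1.11. Because these are bulk samples, fewer cells of a type and less RNA per cell cannot be told apart.

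**Figure D1:**
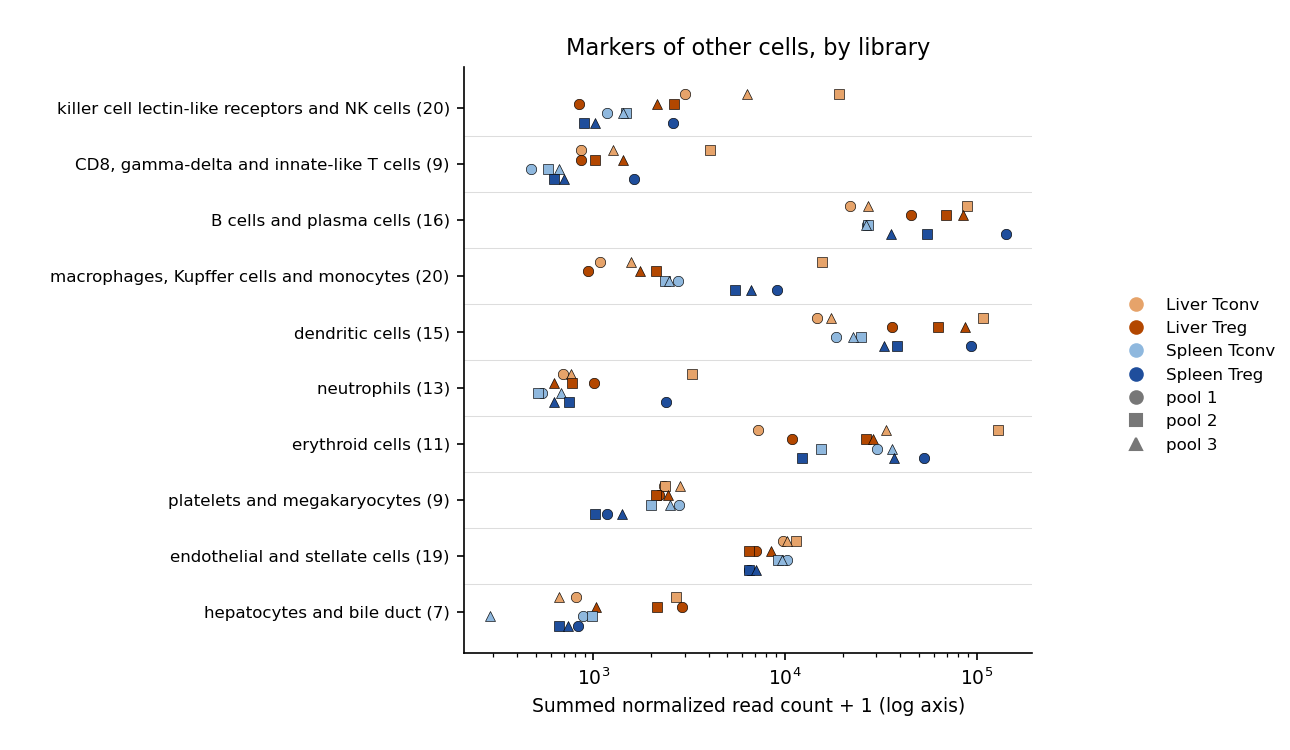
Summed normalized read counts (plus 1, log axis) of 10 lists of markers of other cells, with the number of genes found in brackets; each symbol is 1 library, coloured by group and shaped by pool number. Liver Tconv 2, the light orange squares, lies to the right of the other liver Tconv libraries in all lists but that of platelets and megakaryocytes.

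Few genes passed the test for a Treg-Tconv gap that differs between liver and spleen. A gene that did not pass cannot be taken to have equal gaps in the 2 tissues. limma, with Benjamini-Hochberg adjustment over all genes tested, called 10 genes at an adjusted p under 0.05, which is 0.0573% of 17452. The gap was higher in liver for 7 of them (0.0401%): Cyp2s1, Fam81a, Bcorl1, Cpm, Pycard, Gmfg and Adk. It was lower in liver for 3 (0.0172%): Zc3h12c, Spin2c and Bmyc. Before adjustment, 1688 genes had a p under 0.05, which is 9.67% of the genes tested, 897 with an interaction above 0 (5.14%) and 791 below 0 (4.53%). The median interaction over all genes was −0.001. DESeq2 on the recovered reads called 200 genes (1.15%), 97 higher (0.556%) and 103 lower (0.59%), and limma with all 24 libraries called 71 (0.407%), 36 higher (0.206%) and 35 lower (0.201%). Deviations from group means correlated at 0.147 to 0.567 for same-numbered Treg and Tconv pools of a tissue. Differently numbered ones ran from -0.373 to 0.193, and Liver Tconv 2 correlated with Spleen Treg 1 at 0.58. The labels do not tie same-numbered pools to the same mice, so this pairing is not established. With tissue and pool number as a block the same test called 31 genes (0.178%), 17 above 0 (0.0974%) and 14 below (0.0802%). Of the 10 genes, 5 were among these 31. Over all genes tested, 2523 had an unadjusted p under 0.05 with the block, against 1688 without it. Counts of list members with the block, given below, stand against that larger number. The calls lie close to the threshold: with limma, leaving out any 1 of 9 of the 12 libraries left 0 genes past it. Those fits had 1188 to 2199 genes at an unadjusted p under 0.05. Without Liver Tconv 2 there were 11 calls, and 5 of them were among the 10 genes. Without Spleen Tconv 3 there were 5, with 2 among the 10, and without Spleen Treg 3 there were 3, with 2 among the 10. All 10 kept their sign in each of the 29 alternative analyses.

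**Figure D2:**
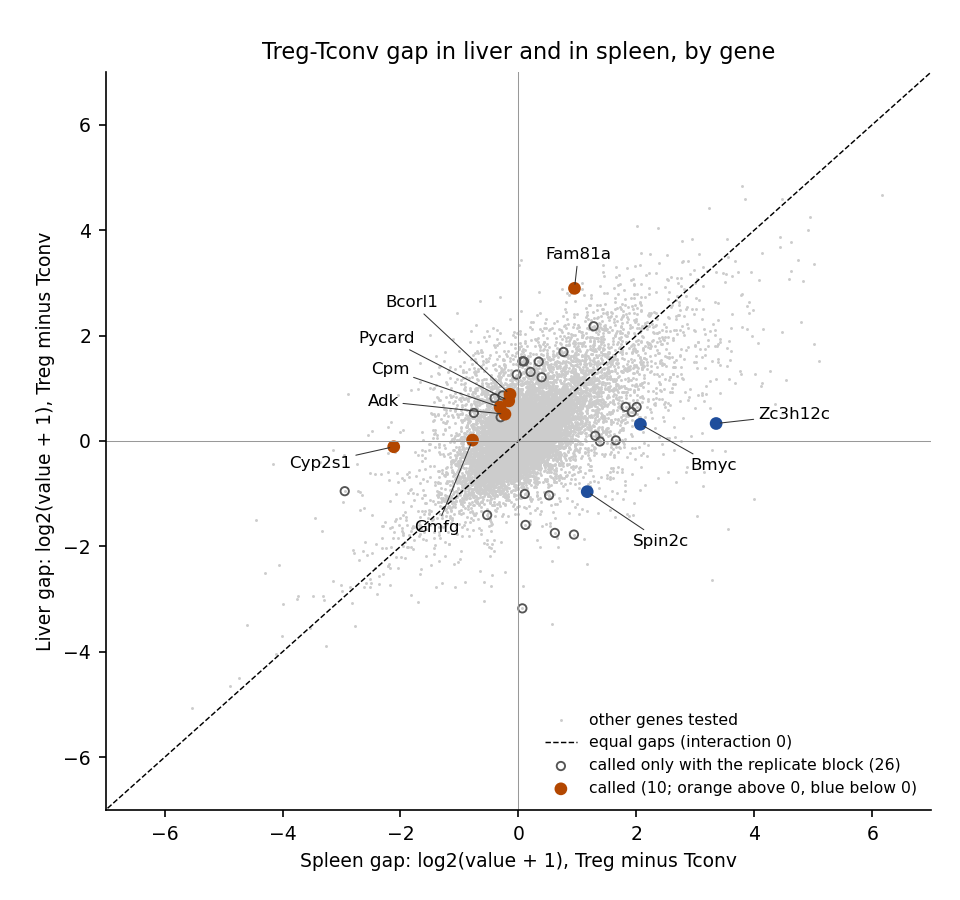
Treg minus Tconv difference in spleen (x axis) and liver (y axis) on the log2(value + 1) scale, 1 point for each of the 17452 genes tested; the distance from the dashed line is the interaction. Of the 7 called genes above the line, 5 have a positive liver gap beside a negative spleen gap, and of the 3 below it, Zc3h12c and Bmyc have a positive gap in both tissues.

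Of the 7 genes with a higher gap in liver, Cyp2s1, Cpm and Adk encode enzymes. Cyp2s1 (ENSMUSG00000040703, chromosome 7, 25802475 to 25816913 on GRCm38, protein coding), a cytochrome P450 outside the main hepatic drug-metabolizing forms, gave normalized read counts in liver Tconv 289.7, 295 and 302, in liver Treg 228, 292 and 308, in spleen Tconv 201, 261 and 272 and in spleen Treg 50.1, 46.3 and 73.0. The 3 spleen Treg pools were the low ones, with no overlap with any other group, and liver Treg were at the level of Tconv. The interaction was 2.00 ± 0.269 (SE; adjusted p = 0.0372), and 0.0402 was the adjusted p with the replicate block. Cpm (ENSMUSG00000020183, chromosome 10, 117629500 to 117687352, protein coding) encodes carboxypeptidase M, a membrane enzyme that removes basic residues from the end of peptides. Its values were in liver Tconv 2002, 2076 and 2228, in liver Treg 3352, 3168 and 3312, in spleen Tconv 2254, 2157 and 2292 and in spleen Treg 1614, 1844 and 1962. Liver Treg were the highest and spleen Treg the lowest group, and the 4 groups' values overlapped only between the Tconv groups. The interaction of Cpm was 0.95 ± 0.122 (SE; adjusted p = 0.0372), with an adjusted p of 0.0402 with the block. Adk (ENSMUSG00000039197, chromosome 14, 21052574 to 21448569, protein coding), adenosine kinase, which turns adenosine into AMP inside the cell, had values in liver Tconv 2027, 2001 and 2092, in liver Treg 2840.4, 2828 and 3041, in spleen Tconv 2985, 2602 and 2551 and in spleen Treg 2289, 2316 and 2324. In liver, every Treg pool was above every Tconv pool, and in spleen every Treg pool was below every Tconv pool. Adk had an interaction of 0.74 ± 0.111 (SE; adjusted p = 0.0486), and an adjusted p of 0.0514 with the block, short of the threshold. Adk was the 1 called gene among the members of 47 gene lists. In the same adenosine and cyclic AMP list of 15 tested genes, Ada, adenosine deaminase, which also removes adenosine, had an interaction of -0.83 ± 0.301 (SE; adjusted p = 0.418).

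A second group acts in signalling, the cytoskeleton and chromatin. Pycard (ENSMUSG00000030793, chromosome 7, 127989708 to 127993867, protein coding) encodes ASC, the adaptor that joins inflammasome sensors to caspase-1. Its values were in liver Tconv 2404, 2243 and 2180.3, in liver Treg 3504, 4225 and 3856, in spleen Tconv 2059, 2004 and 2136 and in spleen Treg 1743, 1864 and 1929.7. Liver Treg stood above all other pools, and spleen Treg lay below spleen Tconv. The interaction was 0.92 ± 0.122 (SE; adjusted p = 0.0372), with an adjusted p of 0.0402 with the block. Gmfg (ENSMUSG00000060791, chromosome 7, 28437447 to 28448233, protein coding), an actin regulator of blood cells that acts on branched filaments, had values in liver Tconv 4875, 5181 and 5381, in liver Treg 4911, 5346 and 5374, in spleen Tconv 5344, 4684 and 5090.4 and in spleen Treg 3025, 2939 and 2842. The 3 spleen Treg pools were the low ones and the 3 other groups overlapped, as for Cyp2s1. Its interaction was 0.80 ± 0.111 (SE; adjusted p = 0.0386), and 0.0402 was its adjusted p with the block. Bcorl1 (ENSMUSG00000036959, chromosome X, 48341358 to 48408049, protein coding), a transcriptional corepressor related to the BCL6 corepressor, had values in liver Tconv 357, 366 and 398, in liver Treg 751, 708 and 619, in spleen Tconv 390.2, 334 and 362 and in spleen Treg 347, 303 and 333. Only liver Treg stood apart, above the 9 pools of the 3 other groups. Bcorl1 had an interaction of 1.03 ± 0.157 (SE; adjusted p = 0.0486) and an adjusted p of 0.056 with the block. Fam81a (ENSMUSG00000032224, chromosome 9, 70088511 to 70142560, protein coding) was the lowest expressed of the 10, at 13.5 to 15.6 in liver Tconv, 112, 134 and 95.9 in liver Treg, 28.9, 27.2 and 24.9 in spleen Tconv and 45.6, 60.8 and 53.8 in spleen Treg. Treg were above Tconv in both tissues, and the distance was larger in liver. Its interaction was 1.94 ± 0.298 (SE; adjusted p = 0.0486), and 0.0729 was its adjusted p with the block.

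The 3 genes with a lower gap in liver were at their highest in spleen Treg. Zc3h12c (ENSMUSG00000035164, chromosome 9, 52111344 to 52168572, protein coding) encodes Regnase-3, of the family of RNases that degrade transcripts of inflammatory genes. Its values were in liver Tconv 99.3, 289 and 141, in liver Treg 229, 163 and 217, in spleen Tconv 60.7, 56.2 and 55.9 and in spleen Treg 592, 804 and 448. Spleen Treg were above every other pool and spleen Tconv below, while the 2 liver groups overlapped, with Liver Tconv 2 the highest of the 6 liver pools. The interaction of -3.02 ± 0.461 (SE; adjusted p = 0.0486) became -2.59 without Liver Tconv 2 (adjusted p = 0.0204). Taking same-numbered pools, the gaps of Zc3h12c were 1.20, -0.82 and 0.62 in liver and 3.27, 3.81 and 2.98 in spleen, and with the block the adjusted p was 0.0605. Bmyc (ENSMUSG00000049086, chromosome 2, 25706739 to 25707721, protein coding), a relative of Myc that lacks its DNA-binding end, had values in liver Tconv 87.8, 98.9 and 82.8, in liver Treg 112, 102 and 123, in spleen Tconv 33.7, 47.2 and 54.7 and in spleen Treg 181, 192 and 195. In liver the Treg pools were above the Tconv pools by a small step, and in spleen by a large one. Its interaction was -1.75 ± 0.261 (SE; adjusted p = 0.0486), and 0.0514 was its adjusted p with the block. Spin2c (ENSMUSG00000046550, chromosome X, 153832225 to 153834243, protein coding), a member of the spindlin family of histone readers, had values in liver Tconv 118, 120.1 and 89.7, in liver Treg 54.0, 51.4 and 60.5, in spleen Tconv 51.1, 69.8 and 84.5 and in spleen Treg 136, 155 and 166. Its order was opposite in the 2 tissues: Treg were below Tconv in every liver pool and above in every spleen pool. Spin2c had an interaction of -2.13 ± 0.289 (SE; adjusted p = 0.0372) and an adjusted p of 0.0402 with the block. Close relatives of Spin2c lie on the X chromosome, so reads may have been split among copies, and A230005M16Rik, annotated on the opposite strand, overlaps Bmyc.

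**Figure D3:**
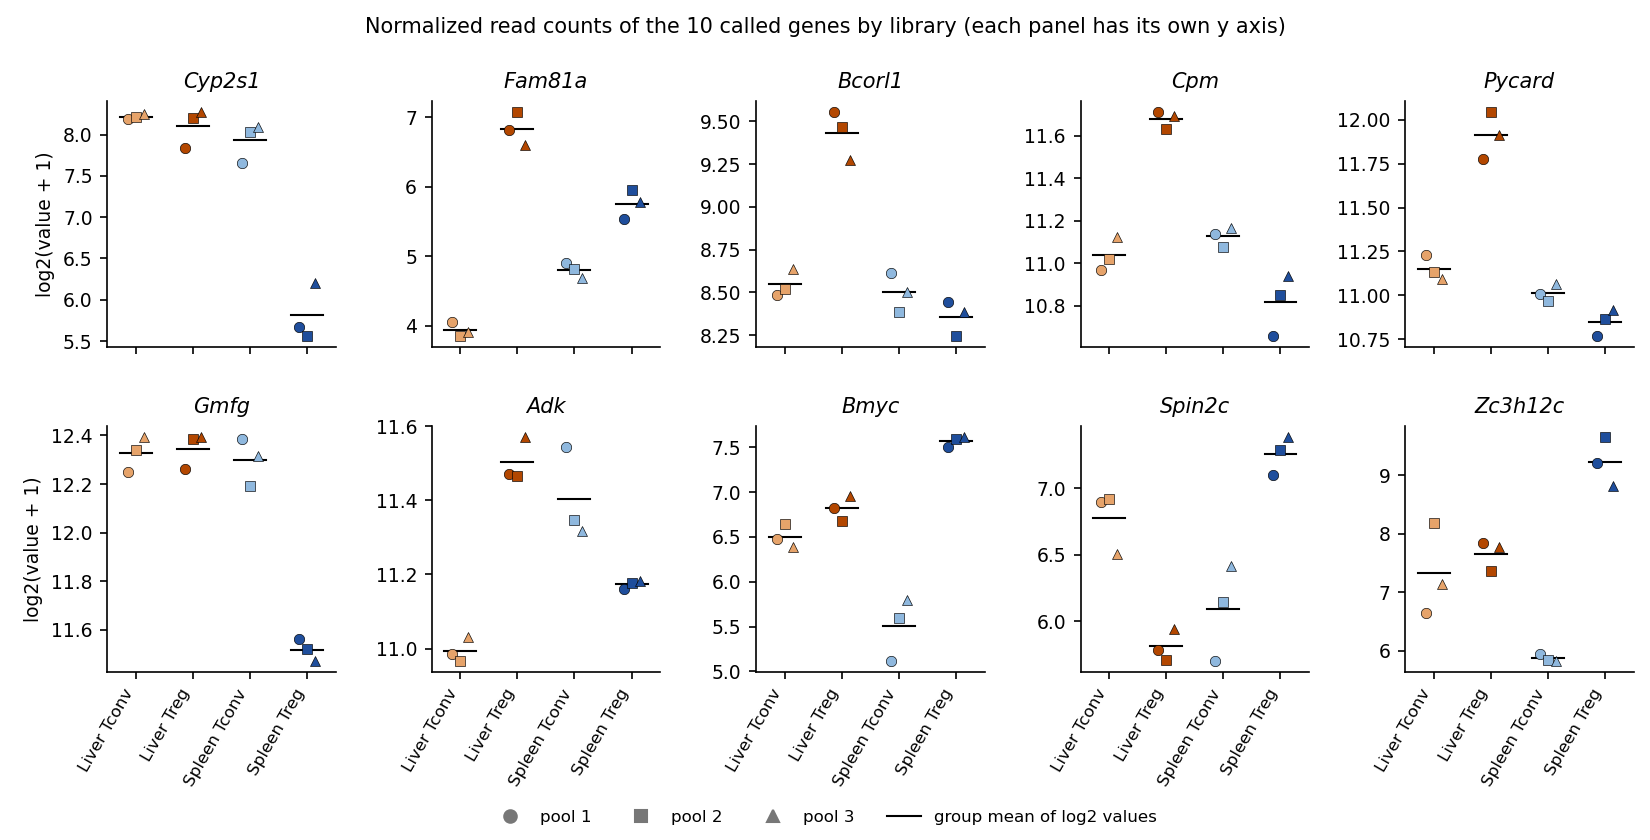
Normalized read counts, as log2(value + 1), of the 10 called genes; each symbol is 1 library, shaped by pool number, and each line is a group mean. Spleen Treg is the low group for Cyp2s1 and Gmfg and the high group for Bmyc, Spin2c and Zc3h12c, and liver Treg is the high group for Fam81a, Bcorl1, Cpm, Pycard and Adk.

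The promoters of the 10 genes (13 windows in the RefSeq table for GRCm38.p6, from 250 bases before to 50 after each start) held no match, on either strand, to TTCNNNGAA for STAT factors, TGANTCA for AP-1, TGACGTCA for the cyclic AMP response element or GGGTGTGG for KLF factors. Of all 32851 windows, 8.30%, 7.81%, 1.79% and 3.56% hold them. A loose NF-kB motif was found in 10 of the 13 windows and in 50.8% of all windows.

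With the replicate block, 26 further genes passed the test, 13 in each direction, and they are called by that fit only. Here and in the next paragraph, each interaction and its SE are those of the fit without the block. An adjusted p with the block rests on the blocked fit's own SE, which is not shown. None of the 26 genes is in the mitosis or DNA replication list, where the blocked fit called 0 of 22 and 0 of 22. Cdc25b, a phosphatase that starts mitosis, was at 1676, 2690.3 and 2244 in liver Tconv, 5299, 6641 and 6627 in liver Treg, 2187, 2039 and 1711 in spleen Tconv and 1965, 2103 and 2246 in spleen Treg. The 3 liver Treg pools were above all others, and the 2 spleen groups overlapped. The interaction of Cdc25b was 1.41 ± 0.227 (SE), with an adjusted p of 0.0402 with the block and 0.0677 without it. Cenpa, the histone of the centromere, had an interaction of 1.29 ± 0.246 (adjusted p = 0.0447 with the block), and Hmgb2, a chromatin protein of dividing cells, 0.81 ± 0.237 (adjusted p = 0.0402). S100a10 and Crip1, abundant in effector and tissue T cells, had interactions of 0.92 ± 0.222 and 1.10 ± 0.248. In liver Treg S100a10 reached 12776, 15754 and 13947, against 4621, 5542 and 5644 in spleen Treg. Icos, a costimulatory receptor, had values in liver Tconv 4713, 5454 and 5342, in liver Treg 14702, 14388 and 14829, in spleen Tconv 16021, 14408 and 8305 and in spleen Treg 16743, 18714 and 12526. Liver Tconv were the low group, and Spleen Tconv 3 was below the other 2 spleen Tconv pools. Its interaction was 1.16 ± 0.296, with an adjusted p of 0.0402 with the block and 0.227 without. The others with a higher gap in liver were Ggt1, at 1.99 ± 0.390, Nebl, at 1.44 ± 0.280, Aqp3, the water and glycerol channel, at 1.29 ± 0.323, Syne2, a protein of the nuclear envelope, at 1.22 ± 0.205, Rnf125, a ubiquitin ligase, at 1.13 ± 0.282, Glrx, glutaredoxin, at 0.90 ± 0.227, and Tagln2, an actin-binding protein, at 0.75 ± 0.209.

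Of the 13 with a lower gap in liver, Klrb1c was the 1 of 20 NK cell markers called with the block, and Ctsw and Cst7 were the 2 of 15 cytotoxic granule genes, where that fit called 0.178% of all genes. Klrb1c encodes NK1.1, the protein against which the cells were sorted. Its values were in liver Tconv 394, 1716 and 1051, in liver Treg 37.6, 158 and 156, in spleen Tconv 83.8, 73.5 and 53.4 and in spleen Treg 132, 53.0 and 53.8. Liver Tconv were the high group, and Liver Tconv 2 was the highest pool. The interaction was -3.24 ± 0.859 (adjusted p = 0.0402 with the block, 0.249 without). Cd160, a receptor of NK cells and cytotoxic T cells, was at 507, 1507 and 627 in liver Tconv and at 175, 257 and 264 in liver Treg, and its interaction was -2.72 ± 0.469, or -2.25 without Liver Tconv 2. Ctsw, cathepsin W of cytotoxic lymphocytes, had -1.11 ± 0.201, and Cst7, a protease inhibitor of their granules, -1.36 ± 0.382. The sum of the 20 markers of NK cells ran from 2996 to 19058 in liver Tconv, 838 to 2639.6 in liver Treg, 1181 to 1483 in spleen Tconv and 896 to 2605 in spleen Treg, and its part in these results was not tested. Ccr7, the receptor that draws T cells into lymph nodes, had values in liver Tconv 28307, 30236 and 33536, in liver Treg 9887, 11248 and 13897, in spleen Tconv 35415, 39999.5 and 35532 and in spleen Treg 26317, 27925 and 22733. Treg were below Tconv in every pool of both tissues, and the distance was larger in liver. Its interaction was -0.87 ± 0.181 (adjusted p = 0.0402 with the block, 0.134 without). Mgmt, which repairs alkylated DNA, gave same-numbered gaps of -0.11, 0.09 and -0.01 in liver and 1.37, 1.37 and 1.41 in spleen, close to each other within each tissue. The remaining 7 were Prrt1 at -2.36 ± 0.438, Ckb, brain-type creatine kinase, at -1.71 ± 0.301, Eno3, a muscle enolase, at -1.64 ± 0.334, Prag1 at -1.55 ± 0.261, Gpr34, a receptor for lysophosphatidylserine, at -1.37 ± 0.248, Hivep3, a zinc finger protein, at -1.20 ± 0.305, and Osgin1, an oxidative stress response gene, at -1.17 ± 0.503.

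The IL-2 response was followed through its receptor, its signalling chain and the genes it induces. None of the 22 tested members of the IL-2 receptor and STAT5 list was called by limma or by edgeR, and DESeq2 called 4 (background 1.15%). In the unadjusted test 8 were lower in liver (background 4.53%) and 1 was higher (background 5.14%), 17 of 22 had an interaction below 0 (background 50.1%), and the median was −0.47 against −0.001 for all genes. Without Spleen Tconv 1 the unadjusted counts were 7 and 1. Leaving out Liver Tconv 1, Liver Tconv 3 and Spleen Tconv 3 left Liver Tconv 2 as the only liver Tconv pool. The median was then −0.44. The members named next were singled out after their values were seen. Il2ra gave values in liver Tconv 1082, 618 and 893, in liver Treg 7576, 6608 and 9637, in spleen Tconv 500.0, 361 and 1078 and in spleen Treg 11309, 14536 and 17714. Treg were far above Tconv in both tissues, and the spleen Treg pools were all above the liver Treg pools. Its interaction was -1.40 ± 0.480 (SE; adjusted p = 0.394). Il2rb, the receptor's signalling chain shared with IL-15, had -1.23 ± 0.490 (SE; adjusted p = 0.466). Cish, an inhibitor of IL-2 signalling that STAT5 induces, gave in liver Tconv 688, 657 and 459.6, in liver Treg 2120.4, 1955 and 2117, in spleen Tconv 653, 763 and 517 and in spleen Treg 5137, 5301 and 4739. Again Treg were above Tconv in both tissues, with the liver Treg pools below the spleen Treg pools. The interaction of Cish was -1.19 ± 0.227 (SE; adjusted p = 0.104), and its adjusted p was 0.0618 with the block, 0.000169 by DESeq2 and 0.032 with all 24 libraries in the fit. Lta, which encodes the cytokine lymphotoxin alpha, had values in liver Tconv 609.7, 389.9 and 337, in liver Treg 392, 398 and 456, in spleen Tconv 574, 437 and 461 and in spleen Treg 928, 958 and 1245. Only spleen Treg stood apart, above the 9 other pools. Its interaction was -1.14 ± 0.284 (SE; adjusted p = 0.225). Myc likewise had 1 group apart, with 5003, 4395 and 5157 in spleen Treg and 1676 to 2887 in the 9 other pools, and an interaction of -1.02 ± 0.265 (SE; adjusted p = 0.238). Bcl2, a survival factor, had -0.80 ± 0.240 (SE; adjusted p = 0.308). Il2 itself was low in Treg, at 29.9, 49.4 and 22.9 in liver and 22.4, 30.9 and 21.0 in spleen. In Tconv it was at 107, 152 and 76.8 in liver and 280.4, 262 and 221 in spleen, all 3 spleen pools above the liver pools, and the interaction of Il2 was 1.62 ± 0.430 (SE; adjusted p = 0.249).

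The promoter windows of Cish and Lta are shown because both hold 2 copies of TTCNNNGAA, the spaced palindrome that STAT dimers bind. A copy was found in 5 of 20 windows of the list (25.0% of windows, for Cish, Gzmb, Il7r, Lta and Socs3, with 17 genes matched), and in 8.30% of all 32851 windows. The 280 bases run 5′ to 3′ on the strand of the gene, from 250 before the annotated start to 30 after, from RefSeq on GRCm38.p6, and capitals mark the matches. Cish lies on the plus strand at chr9:107296409-107296688 and Lta on the minus strand at chr17:35205322-35205601.
Cish promoter: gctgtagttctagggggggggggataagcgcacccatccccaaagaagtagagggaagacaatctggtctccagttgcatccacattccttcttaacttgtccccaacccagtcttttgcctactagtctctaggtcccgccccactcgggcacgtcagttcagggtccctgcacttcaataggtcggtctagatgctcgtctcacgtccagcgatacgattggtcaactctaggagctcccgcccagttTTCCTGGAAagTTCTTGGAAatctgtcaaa
Lta promoter: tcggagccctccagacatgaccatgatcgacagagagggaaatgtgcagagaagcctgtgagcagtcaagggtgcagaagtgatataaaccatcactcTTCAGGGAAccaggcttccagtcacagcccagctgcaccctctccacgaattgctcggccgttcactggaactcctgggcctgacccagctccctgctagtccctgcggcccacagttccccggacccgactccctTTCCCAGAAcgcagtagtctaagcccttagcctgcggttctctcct
In Cish the matches are TTCCTGGAA, which begins at the annotated start, and TTCTTGGAA, 11 bases further on. In Lta they are TTCAGGGAA, beginning 152 bases before the start, and TTCCCAGAA, beginning 16 bases before it. A match describes the letters only, and binding was not measured here.

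**Figure D4:**
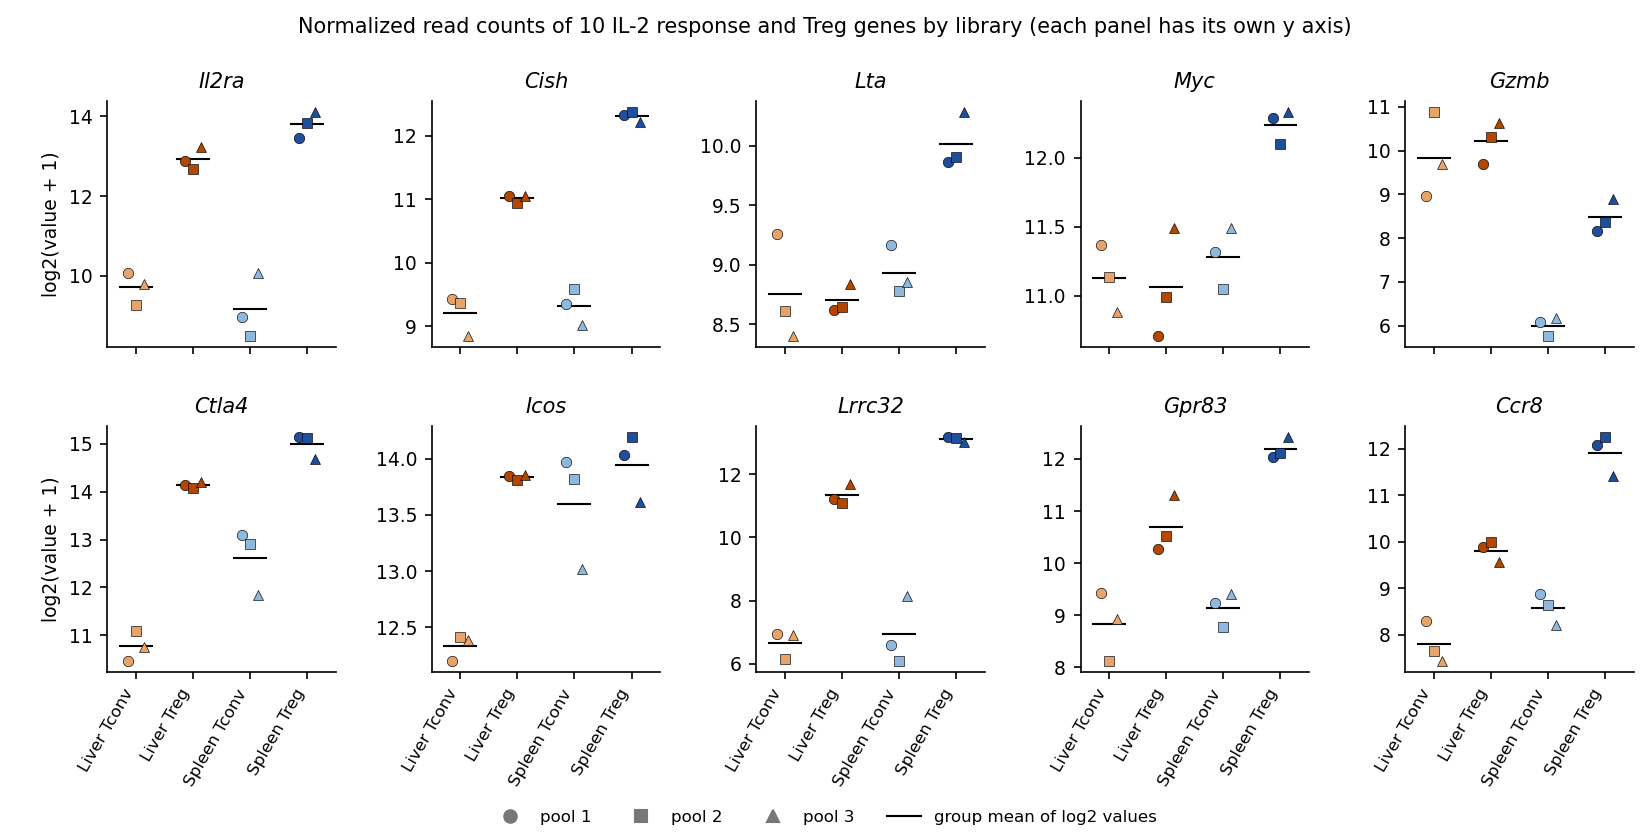
Normalized read counts, as log2(value + 1), of 5 genes of the IL-2 response (upper row) and 5 genes typical of Treg (lower row), chosen after their values were seen; each symbol is 1 library and each line is a group mean. The spleen Treg pools are above all liver Treg pools for Il2ra, Cish, Lta, Myc, Ctla4, Lrrc32, Gpr83 and Ccr8, and below them for Gzmb.

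Genes that define Treg lay on both sides of 0, as did all genes tested. Of 28 tested members of the Treg core list, 11 were above 0 (background 49.9%) and 17 below (background 50.1%). Their median was −0.27 against −0.001 for all genes. limma and edgeR called none and DESeq2 called 1 (background 1.15%). At an unadjusted p under 0.05, 3 members were higher (background 5.14%) and 5 were lower (background 4.53%). With the block 5 were higher and 6 lower, and 1 was called (background 0.178%). Without the 3 Tconv libraries holding Foxp3 reads, which leaves Liver Tconv 2 as the only liver Tconv pool, the median was −0.16. Ctla4, the inhibitory receptor, was the most abundant, with values in liver Tconv 1411, 2172 and 1716, in liver Treg 18183, 17260.4 and 18917, in spleen Tconv 8746, 7689.5 and 3658 and in spleen Treg 36250.2, 35926 and 26419.7. The liver Tconv pools were the lowest, and the spleen Treg pools the highest. Its interaction was 1.00 ± 0.384 (SE; adjusted p = 0.443), above 0 as for Icos, and Ikzf2, which encodes the Treg factor Helios, had 0.88 ± 0.371 (SE; adjusted p = 0.492). On the other side stood Lrrc32, which encodes GARP, the carrier of latent TGF-beta, with -1.50 ± 0.580 (SE; adjusted p = 0.447). Its levels were 2392, 2174 and 3284 in liver Treg and 9268, 9147 and 8342 in spleen Treg, and 67.1 to 284.5 in the 6 Tconv pools, where Spleen Tconv 3, a library with Foxp3 reads, was the highest. Gpr83, an orphan receptor of Treg, had -1.18 ± 0.451 (SE; adjusted p = 0.444), and Gata1 -0.95 ± 0.396 (SE; adjusted p = 0.485). In the list of 22 tissue Treg genes, 13 were above 0 and 9 below, with a median of 0.11 and none called by limma or edgeR. At an unadjusted p under 0.05, 1 was higher and 3 were lower, and DESeq2 called 2 (background 1.15%). That median was −0.05 without Spleen Tconv 1 and −0.04 without the same 3 Tconv libraries. With the block 5 were higher and 4 lower. The 3 lower members were Dgat2, an enzyme of triglyceride synthesis, at -1.88 ± 0.564 (SE; adjusted p = 0.307), Fgl2, which encodes a secreted suppressive fibrinogen-like protein, at -2.40 ± 0.607 (SE; adjusted p = 0.225), and Ccr8 at -1.33 ± 0.366 (SE; adjusted p = 0.265). Fgl2 was high in Liver Tconv 2, at 1500.2 against 337 and 569 in the other liver Tconv pools, and its interaction was -1.80 without that library. Ccr8, a chemokine receptor of tissue Treg, had values in liver Tconv 312, 201 and 172, in liver Treg 940.1, 1009.9 and 749, in spleen Tconv 468, 396 and 296 and in spleen Treg 4341, 4864 and 2723, with spleen Treg the high group.

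Other receptors for migration also pointed both ways. Of 19 tested chemokine and egress receptors, 4 had an unadjusted p under 0.05 above 0 (background 5.14%) and 4 below 0 (background 4.53%). limma and edgeR called none of the 19 while DESeq2 called 3 (background 1.15%). Their median was 0.15 by limma and −0.04 by edgeR. Leaving out the 3 Tconv libraries that hold Foxp3 reads, with Liver Tconv 2 the only liver Tconv pool left, gave a median of −0.60. The block gave 7 higher and 5 lower at an unadjusted p under 0.05, and 1 called (background 0.178%). Besides Ccr7 and Ccr8, Cxcr6, a receptor of liver-homing T cells, was at 4436, 8672 and 5633 in liver Tconv and 3296, 3539 and 2993 in liver Treg, and at 1169.6, 1001 and 642 and 952, 1018 and 866 in the same cells of the spleen, an interaction of -0.93 ± 0.335 (SE; adjusted p = 0.415). S1pr1, the receptor for exit from tissues, was at 37849.6, 38018 and 35866 in spleen Tconv, above the 9 other pools, and its interaction was 0.73 ± 0.190 (SE; adjusted p = 0.238). Ccr4 had 0.68 ± 0.189 (SE; adjusted p = 0.274). Of 23 tested integrin and adhesion genes, 10 were above 0 and 13 below, with 4 higher and 2 lower at an unadjusted p under 0.05. None was called by limma or edgeR, and DESeq2 called 1. The lowest adjusted p, 0.108, was that of Itgb3. Itgb1, the beta 1 chain, was at 14955, 16080.2 and 13604 in liver Treg and between 3217 and 8477 elsewhere, and had 1.16 ± 0.391 (SE; adjusted p = 0.39). Itga1, the collagen-binding chain of resident cells, had -1.91 ± 0.561 (SE; adjusted p = 0.301), with Liver Tconv 2 the highest pool at 508 and a value of -1.41 without it. Of 26 tested cytokine receptors other than those of IL-2, 2 were higher and 2 lower at an unadjusted p under 0.05, and limma called none. Il9r, 1 of them, was at 1006, 989.7 and 879 in liver Treg and 283, 326 and 372 in spleen Treg. Its interaction of 1.62 ± 0.350 (SE; adjusted p = 0.16) passed the limma test without Liver Tconv 2 (adjusted p = 0.0166).

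All 22 tested members of the mitosis list had an interaction above 0, where 49.9% of all genes did, with a median of 0.85. limma, edgeR and DESeq2 called none of them, and 9 had an unadjusted p under 0.05 (background 5.14%). Top2a, the topoisomerase that untangles chromosomes, showed the pattern, with values in liver Tconv 1165, 2404 and 1152, in liver Treg 4718, 8558 and 6822, in spleen Tconv 1778, 1466 and 1162 and in spleen Treg 2799, 3648 and 3275. Liver Treg were the highest group and spleen Treg the next, and Liver Tconv 2 was above the other Tconv pools. The interaction of Top2a was 0.98 ± 0.401 (SE; adjusted p = 0.475). Foxm1, a transcription factor of mitotic genes, had 1.15 ± 0.406, Kif11, a spindle motor, 1.00 ± 0.421, Mki67, the proliferation antigen Ki-67, 0.96 ± 0.419, and Cenpf, a kinetochore protein, 0.91 ± 0.316. The unadjusted count depended on the libraries: 19 without Liver Tconv 2, 4 without Spleen Tconv 1 and 2 without Spleen Treg 1. With the block the unadjusted count was 17. Once the 3 Tconv libraries holding Foxp3 reads were left out, Liver Tconv 2 was the only liver Tconv pool. In that fit the median was 0.23 and 14 of 22 members were above 0. The number over all 17452 genes, in either direction, also moved from its 1688 in the main fit. It was 1708 without Liver Tconv 2, 1701 without Spleen Tconv 1, 1188 without Spleen Treg 1 and 2523 with the block. In the DNA replication list, 15 of 22 members were above 0, with a median of 0.28. There were 0 calls by limma or edgeR and 1 by DESeq2 (background 1.15%). At an unadjusted p under 0.05, 3 members were higher (background 5.14%), or 8 with the block. Pola1, the catalytic subunit of DNA polymerase alpha, was at 1221, 1254 and 1204 in liver Treg and 952, 898 and 883 in spleen Treg, and between 781.5 and 842 in the 6 Tconv pools. Its interaction was 0.45 ± 0.108 (SE; adjusted p = 0.206), and Tyms, thymidylate synthase, had 0.48 ± 0.158 (SE; adjusted p = 0.374).

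Cholesterol synthesis genes leaned the same way. Of 21 tested, 18 were above 0, with a median of 0.41, and 10 had an unadjusted p under 0.05 (background 5.14%) while none had one below 0. limma and edgeR called none and DESeq2 called 3 (background 1.15%). The count of 10 was 9 without Spleen Tconv 1 and 8 without Spleen Treg 1. The median was 0.37 when the same 3 Tconv libraries were left out, with Liver Tconv 2 the only liver Tconv pool. Hmgcs1, the enzyme that starts the pathway, had values in liver Tconv 1519.7, 1834 and 1650.0, in liver Treg 1852, 2342 and 2016, in spleen Tconv 2466, 2399 and 2517 and in spleen Treg 1581, 1821 and 2239.7. The liver Treg pools were above the liver Tconv pools, and in spleen the Treg pools were below the Tconv pools. Its interaction was 0.71 ± 0.182 (SE; adjusted p = 0.227). Sc5d, a late enzyme of the pathway, had 0.58 ± 0.129 (SE; adjusted p = 0.169), Fdps, which makes farnesyl diphosphate, 0.54 ± 0.137 (SE; adjusted p = 0.225), and Idi1, which supplies its substrate, 0.59 ± 0.173 (SE; adjusted p = 0.301). Of 13 tested genes of the response to xenobiotics and oxidants, 2 were higher and 1 lower at an unadjusted p under 0.05. With the block 4 were higher. None was called by limma or edgeR, and DESeq2 called 1 (background 1.15%). Among them Nqo1, a quinone reductase, was at 111, 103 and 124 in liver Treg and between 18.3 and 34.0 in the 9 other pools. The interaction of Nqo1 was 2.02 ± 0.390 (SE; adjusted p = 0.104). Ahrr, the repressor of the aryl hydrocarbon receptor, had 0.70 ± 0.258 (SE; adjusted p = 0.424). Hmox1, heme oxygenase, which macrophages of the spleen express strongly, was at 1569, 1071 and 1470.0 in spleen Treg and had -1.87 ± 0.722 (SE; adjusted p = 0.445), or -1.08 without Liver Tconv 2, where it was at 204. The summed macrophage markers ran from 5466 to 9067 in spleen Treg, 2365 to 2763 in spleen Tconv, 937 to 2119.5 in liver Treg and 1079.9 to 15607 in liver Tconv, and their part in the value of Hmox1 was not tested.

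**Figure D5:**
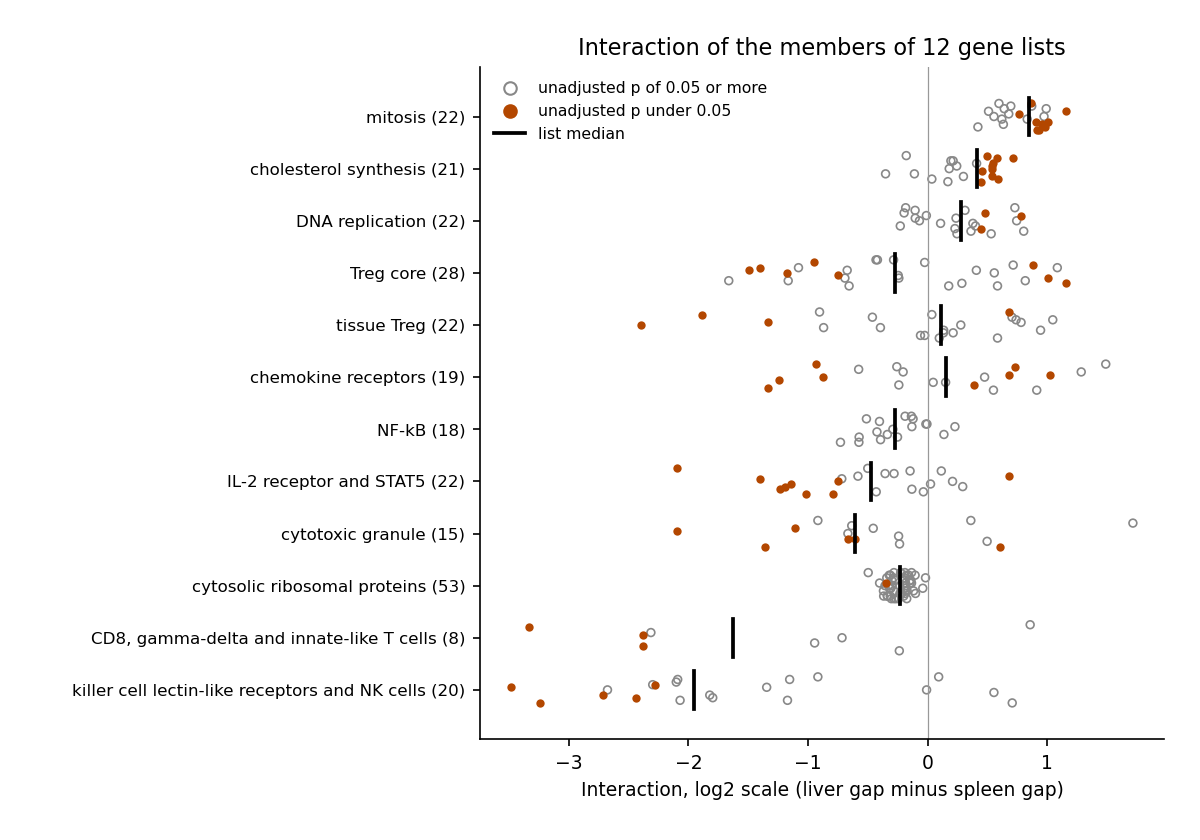
Interaction of each tested member of 12 gene lists on the log2 scale, with the number tested in brackets; filled points have an unadjusted p under 0.05 and bars are list medians. All 22 mitosis genes lie to the right of 0 and all 53 ribosomal protein genes to its left, close to it.

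Cytotoxic granule genes and markers of NK and unconventional T cells were compared next; for Klrb1c and Cd160 an interaction below 0 went with mean Tconv levels above Treg in liver and not in spleen. Of 15 cytotoxic granule genes tested, 11 were below 0 (background 50.1%), with a median of −0.61 that was −0.16 without Liver Tconv 2. At an unadjusted p under 0.05, 5 were lower (background 4.53%) and 1 was higher (background 5.14%). limma and edgeR called none, DESeq2 called 3 (background 1.15%) and the replicate block called Ctsw and Cst7. Gzmb, granzyme B, which is also in the IL-2 list, had values in liver Tconv 497, 1890.2 and 822, in liver Treg 831, 1272 and 1586, in spleen Tconv 66.5, 53.5 and 70.8 and in spleen Treg 286, 329 and 475. Both liver groups were above both spleen groups, and within the spleen all Treg pools were above all Tconv pools. The interaction of Gzmb was -2.10 ± 0.561 (SE; adjusted p = 0.257), and -1.58 without Liver Tconv 2. The 20 genes of killer cell lectin-like receptors and NK cells had a median of −1.95, which was −1.05 without Liver Tconv 2. It was −4.02 without Liver Tconv 1, Liver Tconv 3 and Spleen Tconv 3, where Liver Tconv 2 is the only liver Tconv pool. The 8 tested markers of CD8 and other unconventional T cells had a median of −1.63, or −0.58 without Liver Tconv 2. Of these 28 limma called none, with 5 and 3 members at an unadjusted p under 0.05, edgeR none and DESeq2 2 and 3; with the block, 11 NK markers had an unadjusted p under 0.05. Tcrg-C4, a constant segment of the gamma chain, was at 73.0, 325 and 156 in liver Tconv, 40.5, 62.5 and 77.1 in liver Treg, 4.82, 8.16 and 8.70 in spleen Tconv and 33.1, 20.2 and 39.2 in spleen Treg, an interaction of -3.34 ± 0.672 (SE; adjusted p = 0.118), though the gamma constant segments are alike and may share reads. Ncr1, which defines NK cells, was at 992 in Liver Tconv 2 and between 4.0 and 133 in the other 11 libraries.

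Small shifts shared by many members were seen in 2 further lists. All 53 cytosolic ribosomal protein genes were below 0 (background 50.1%), with a median of −0.23. 1 of them had an unadjusted p under 0.05, or 13 with the replicate block, and limma, with and without the block, edgeR and DESeq2 called none. The median was −0.10 without Spleen Tconv 1, −0.29 with quantile scaling and −0.19 with upper quartile scaling, under each of which 51 or 52 of the 53 were below 0. Of 18 NF-kB genes, 16 were below 0, with a median of −0.27 (14 of 18 under upper quartile scaling), 0 members at an unadjusted p under 0.05 by limma or edgeR, and 0 calls by limma, edgeR or DESeq2. With the block 2 members were lower at an unadjusted p under 0.05. The median was −0.33 when the 3 Tconv libraries holding Foxp3 reads were left out, with Liver Tconv 2 the only liver Tconv pool. Rel, an NF-kB subunit of activated T cells, had -0.73 ± 0.367 (SE; adjusted p = 0.551). Among 19 circadian clock genes the members went both ways. Tef, Per2 and Cry2 had -0.62 ± 0.153, -0.89 ± 0.257 and -0.51 ± 0.156, and Cry1 and Hlf 0.50 ± 0.171 and 1.47 ± 0.507, each with an unadjusted p under 0.05. None of the 19 was called by limma or edgeR, and DESeq2 called 1 (background 1.15%). The times at which pools were collected are not given in the sources used here. The lists of GIMAP GTPases, RNA decay factors, interferon-stimulated genes, glycolysis, fatty acid metabolism and mitochondrial transcripts had medians between −0.07 and 0.09 and no calls by limma, edgeR or DESeq2, with 1 higher and 0 lower interferon-stimulated, 2 and 1 glycolysis (5 and 2 with the block) and 0 and 2 fatty acid genes at an unadjusted p under 0.05, and none in the other 3.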

How the data were processed

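The deposited values are a signal, the normalized read count of each gene, made by the authors by dividing read counts by a size factor, as the values themselves show. HTSeq 0.6.1p1, SAMtools 0.1.19, Bowtie2 2.2.2, TopHat2 2.0.11 and Trimmomatic 0.32 are named in the submitters' processing notes, with the build GRCm38. Whether counting used strand is not stated, so overlapping and antisense genes may share reads. Dividing by each library's step returned whole reads within 0.001 for 100% of values, 17523927 to 25398037 per library, without molecular identifiers. Symbols were matched for 34645 identifiers (967 had none), with coordinates from GENCODE M21.

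limma 3.58.1 in R 4.3.3 was fitted to log2(value + 1) of 12 libraries in 4 groups, with a variance trend, 8 residual degrees of freedom and Benjamini-Hochberg adjustment over 17452 genes, two-sided, called at 0.05; folds of low genes are understated. Genes had to reach 10 in 3 libraries. All adjusted p-values are from limma unless another tool is named. Each SE is from the limma fit of the 12 libraries without a block, also where an adjusted p with the block stands beside it. edgeR 4.0.16 and DESeq2 1.42.0 were run on the recovered reads as alternatives. The limma fit was tested on simulated data, where a known interaction was given to some of the more abundant genes only. It was called with the right sign for 41.8% of these genes at a simulated log2 size of 1. The share was 88.1% at a size of 2 and 92.4% at a size of 3, and 3 genes given no interaction were also called. Counts were drawn independently for each gene and library, so deviations that genes of a pool share were not simulated. Labels do not tie same-numbered pools to the same mice; deviations from group means correlated for same-numbered Treg and Tconv at 0.423, 0.352 and 0.147 in liver and 0.162, 0.173 and 0.567 in spleen, so the block within tissue is given beside the results it changes. Differently numbered Treg and Tconv pools of a tissue correlated at -0.373 to 0.193. No pair of libraries of a group agreed within sampling noise.

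The members, 47 gene lists and rules were chosen with earlier results of these data known. Named genes are the 10 largest called interactions in each direction with a group mean of at least 50, leaving out predicted genes and receptor segments, up to 4 called members of each list, Foxp3, Thy1 and Il2ra, and up to 3 abundant markers of each other cell type, given as a range. Genes called only with the block, and uncalled list members, were named after their values were seen. All listed alternatives were run.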

Additional observations from a re-analysis of the deposited data

Results flagged for a closer look

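Of the results, 10 are listed here because the Treg-Tconv effect differed between liver and spleen by a test of the difference itself (limma, n = 3 pools in each group). The interaction, liver gap minus spleen gap on the log2 scale, was 2.00 for Cyp2s1, 1.94 for Fam81a, 1.03 for Bcorl1, 0.95 for Cpm, 0.92 for Pycard, 0.80 for Gmfg and 0.74 for Adk. It was -1.75 for Bmyc, -2.13 for Spin2c and -3.02 for Zc3h12c. Their adjusted p-values ran from 0.0372 to 0.0486. Over the fits that leave out 1 library, the interaction ran from -2.29 to -1.94 for Spin2c, from 0.87 to 1.01 for Cpm and from -3.36 to -2.59 for Zc3h12c.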

How the results depend on the processing

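Against 10 calls (7 higher, 3 lower), there were 71 (36, 35) with all 24 libraries in the fit, 50 (31, 19) with array weights, 200 (97, 103) by DESeq2, 6 (5, 1) by edgeR with TMM scaling, 5 (4, 1) by edgeR with the deposited size factors, and 2 (1, 1) without a variance trend. With the replicate number as a block there were 16 (9, 7), and with the block within tissue 31 (17, 14). A pseudocount of 10 gave 12 (7, 5). Without a low-value filter there were 0, with 2770 genes at an unadjusted p under 0.05, and for a minimum log2 difference of 1 there were 0. Leaving out the 3 Tconv libraries that hold Foxp3 reads, which leaves Liver Tconv 2 as the single liver Tconv pool, assumed to vary like the other groups, there were 133 (7, 126). Leaving out 1 library gave 0 to 11 calls, 0 to 8 higher and 0 to 3 lower. Other pseudocounts, filters and scalings gave 8 to 12. No gene named with an interaction changed sign under any alternative run. Depth limits low genes: the median SE was 0.292, and 0.158 for genes with a mean of at least 1000.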
